A study of Populus ussuriensis with 20 samples.

Results

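The interval from 2 h to 4 h after transfer was the earliest step of a time course of gene expression in rooting stem cuttings of Populus ussuriensis, the Ussuri poplar. It was described by setting the 4 libraries at 4 h against the 4 at 2 h, 8 of the 20 libraries of the series, with the phosphate level as a block, and the libraries were chosen by their labels alone. Cuttings from 3-week-old plants had formed root primordia during 5 days on solid Woody Plant Medium and were then placed in liquid medium with 10 µM or 200 µM KH2PO4, the phosphate salt. The pieces sampled were the basal stem ends, that is the primordia together with the stem tissue around them. Each of the 4 groups (10 µM at 2 h, 200 µM at 2 h, 10 µM at 4 h and 200 µM at 4 h) had 2 libraries, numbered replicate 1 and replicate 2 in the labels. All groups shared the same preculture, a light and dark cycle and the same transfer, and no genotype other than the species was given. Nothing in the labels says that the replicates came from separate plants or cultures, so each p-value measures the spread between these libraries, which may be technical.

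Adventitious roots grow from stem tissue rather than from the root system, and a cutting depends on them for water and minerals. A primordium is a group of dividing cells with the layout of a root tip that still has to grow out of the stem. Phosphate is taken up by the roots of a plant and is often scarce in soil, and plants are known to alter root growth and gene expression when it is low. The hours after transfer to new medium also bring a change of surroundings, handling and the passage of the day, and these cannot be told apart from time after transfer in this design. In a bulk sample, fewer cells of a type and less RNA per cell cannot be told apart either.

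Expression was given as FPKM, a count of sequenced fragments scaled to gene length and to the size of the library. Genes carry identifiers only, which the file does not pair with names or functions, so genes are described here by their values and not by role. For the same reason the labelled tissue was not checked against marker genes. The steps between low FPKM values gave library totals of 14380324 to 15569419 fragments for the 8 libraries. Changes are given on the log2(FPKM + 1) scale, which understates the change of genes with low values, and 24934 of 34699 genes with at least 1 FPKM in at least 2 of the 20 libraries were tested.

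The libraries at 2 h and at 4 h separated from each other, but the largest difference among the 8 libraries was a split within the 2 h group. The first principal component (29.3% of the variance) carried this split: the 2 h libraries numbered 1 lay at -23.7 (10 µM) and -29.3 (200 µM) and those numbered 2 at 22.5 and 26.6. All 4 libraries at 4 h lay between these pairs, at -6.93 to 8.81. Time ran along the second component, with 22.5% of the variance. There the 4 libraries at 2 h had scores of 11.1 to 20.2 and the 4 at 4 h scores of -18.1 to -14.8, with no overlap. Phosphate level did not order the libraries on either component.

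**Figure D1:**
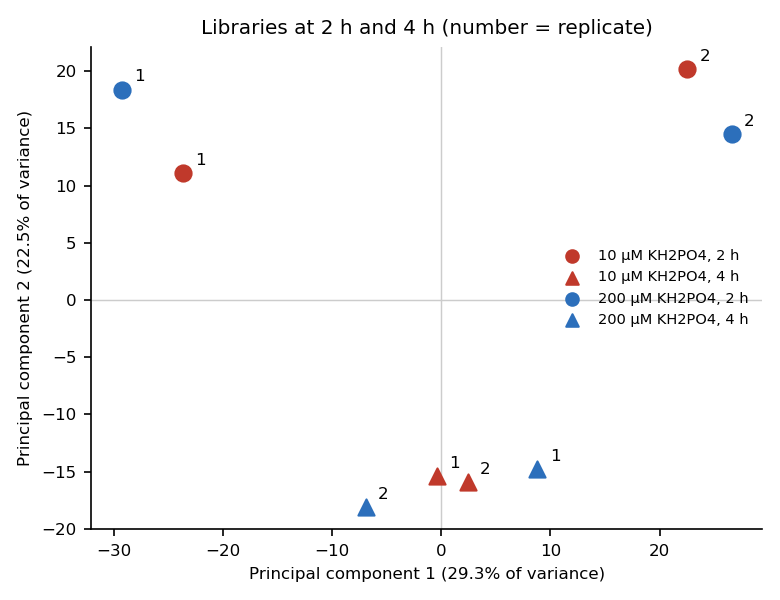
Scores of the 8 libraries on the first principal component (x axis, 29.3% of the variance) and the second (y axis, 22.5%), computed from log2(FPKM + 1) of 24934 genes. Circles are 2 h libraries, triangles 4 h libraries, colours the KH2PO4 level and digits the replicate number. The 2 h libraries lie at the top, replicate 1 on the left and replicate 2 on the right, and the 4 h libraries lie together at the bottom.

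The same split was seen in pairwise differences. The log2 differences between the 2 libraries of a group had an SD over genes of 0.357 at 10 µM and 0.395 at 200 µM after 2 h, against 0.249 and 0.299 after 4 h. Each 2 h library was closest to the library of the same number at the other phosphate level, with an SD of 0.267 for the pair numbered 1 and 0.251 for the pair numbered 2. Of the 8 libraries, 8 had their closest neighbour at the same time. Replicates at 4 h (0.249 and 0.299) were closer than any libraries of different times, whose smallest SD was 0.309. Replicates at 2 h (0.357 and 0.395) were farther apart than the median pair of different times. The median SD was 0.328 for pairs within a group, which mixes the 2 h and 4 h pairs. It was 0.332 for pairs at different times and the same phosphate level. It was 0.283 for pairs at the same time and different phosphate levels. Replicate 1 at 200 µM and 2 h was nearer to the 200 µM libraries at 4 h (0.375 and 0.344) than to its own replicate (0.395). The r between the libraries of a group was 0.9747 to 0.9897 across genes. Their fragment counts differed by a chi-square of at least 4.55 per degree of freedom, more than sampling noise gives, so the files were not repeats of 1 library. Separate libraries from the same RNA could differ in this way too.

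Between 2 h and 4 h, 7 of 24934 genes (0.0281%) passed limma's test at a Benjamini-Hochberg adjusted p under 0.05. Of these, 4 were higher at 4 h (0.016% of the genes tested) and 3 were lower (0.012%). The rises were about 2-fold in size and were seen in genes of moderate abundance, with means of 6.12 to 31.8 FPKM at 2 h. The largest fall took a gene from 5.85 to 0.801 FPKM. In none of the 7 genes did the 4 libraries at 4 h overlap those at 2 h. The genes Potri.011G131001, Potri.011G131051, Potri.004G187450 and Potri.002G165000 were named by the rule for genes without a description, and the other 3 after their values were seen.

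Potri.011G131001 rose. After 2 h it stood at 10.4 and 11.0 FPKM at 10 µM and at 10.1 and 10.1 FPKM at 200 µM, and after 4 h at 24.1 and 21.1 FPKM at 10 µM and at 23.1 and 20.9 FPKM at 200 µM. The 2 h libraries were close together and the lowest 4 h library was well above them at both phosphate levels. The log2 difference was 1.03 ± 0.08 (SE) with an adjusted p of 0.00554, and the means were 10.4 ± 0.44 FPKM at 2 h and 22.3 ± 1.5 FPKM at 4 h (SD, n = 4 each). Its fragment counts were 169 to 181 in the 2 h libraries and 364 to 408 in the 4 h libraries.

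Potri.011G131051 rose by a similar amount. Its libraries held 6.49, 5.53, 6.54 and 5.93 FPKM after 2 h (10 µM replicates 1 and 2, then 200 µM replicates 1 and 2) and 12.4, 11.8, 15.3 and 12.6 FPKM after 4 h. All 4 libraries at 4 h were high, the highest being replicate 1 at 200 µM. The log2 difference was 0.97 ± 0.10 (SE), between means of 6.12 ± 0.48 FPKM at 2 h and 13 ± 1.5 FPKM at 4 h (SD, n = 4 each), with an adjusted p of 0.0217. The identifiers of this gene and of Potri.011G131001 differ in 1 digit, and over the 20 libraries Potri.011G131051 had the profile most like that of Potri.011G131001 among 24933 genes (r = 0.956 on the log2 scale, the next gene 0.892). Both genes were selected for a rise from 2 h to 4 h, and the 20 libraries include those times, which raises this r. The ratio of their FPKM values ranged from 1.24 to 1.99 between libraries. How reads shared by similar or overlapping genes were treated is not given in the sources used here, so it is uncertain whether their reads are separate.

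Potri.005G181200 measured 11.0, 10.1, 11.3 and 8.32 FPKM after 2 h and 21.5, 20.9, 20.0 and 19.6 FPKM after 4 h, in the same library order. It was nearly level at 4 h, while replicate 2 at 200 µM was the lowest library at 2 h. The log2 difference was 0.95 ± 0.10 (SE; means 10.2 ± 1.3 and 20.5 ± 0.86 FPKM, SD, n = 4 each), with an adjusted p of 0.0217. Potri.015G087800, the most abundant of the 7 genes, measured 29.2, 33.9, 31.9 and 32.1 FPKM after 2 h and 54.0, 58.0, 50.4 and 59.6 FPKM after 4 h. It was higher in every 4 h library, at a log2 difference of 0.79 ± 0.08 (SE; means 31.8 ± 2 and 55.5 ± 4.2 FPKM) and an adjusted p of 0.0217.

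The gene with the largest fall was Potri.004G187450. It held 3.50, 8.11, 6.09 and 5.69 FPKM after 2 h and 0.662, 0.977, 0.933 and 0.631 FPKM after 4 h. Its 2 h libraries at 10 µM were the lowest and the highest of that time, yet all 4 lay far above the 4 h libraries. The log2 difference was -1.89 ± 0.20 (SE), with an adjusted p of 0.0217, and the ratio of the mean FPKM at 2 h to that at 4 h was 7.30. The 4 h values rested on 8 to 12 fragments per library, so the size of the fall is uncertain; its log2 difference became -2.69 when the pseudocount was 0.1, and voom on fragments gave -2.77.

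Potri.002G165000 fell as well. It measured 17.7, 13.7, 16.5 and 19.5 FPKM after 2 h and 6.15, 7.77, 8.48 and 8.58 FPKM after 4 h. The lowest 2 h library, replicate 2 at 10 µM, was still above every 4 h library. Its log2 difference was -1.03 ± 0.11 (SE; means 16.8 ± 2.4 and 7.74 ± 1.1 FPKM, SD, n = 4 each), with an adjusted p of 0.0217. Potri.005G163000 measured 17.9, 18.2, 24.6 and 23.8 FPKM after 2 h and 12.0, 11.9, 14.0 and 15.3 FPKM after 4 h. At both times its 200 µM libraries were the higher ones, and the log2 difference with time was -0.62 ± 0.07 (SE), with an adjusted p of 0.0329. This call was lost with the replicate number as a term (adjusted p 0.0509 in limma), without a variance trend (0.0850) and in the fit on all 20 libraries (0.584). The fit on 20 libraries also ended the calls of Potri.015G087800 (0.217), Potri.004G187450 (0.146) and Potri.002G165000 (0.118). Potri.015G087800 was lost without a variance trend too (0.06), and Potri.004G187450 without the filter on low values (0.0549).

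**Figure D2:**
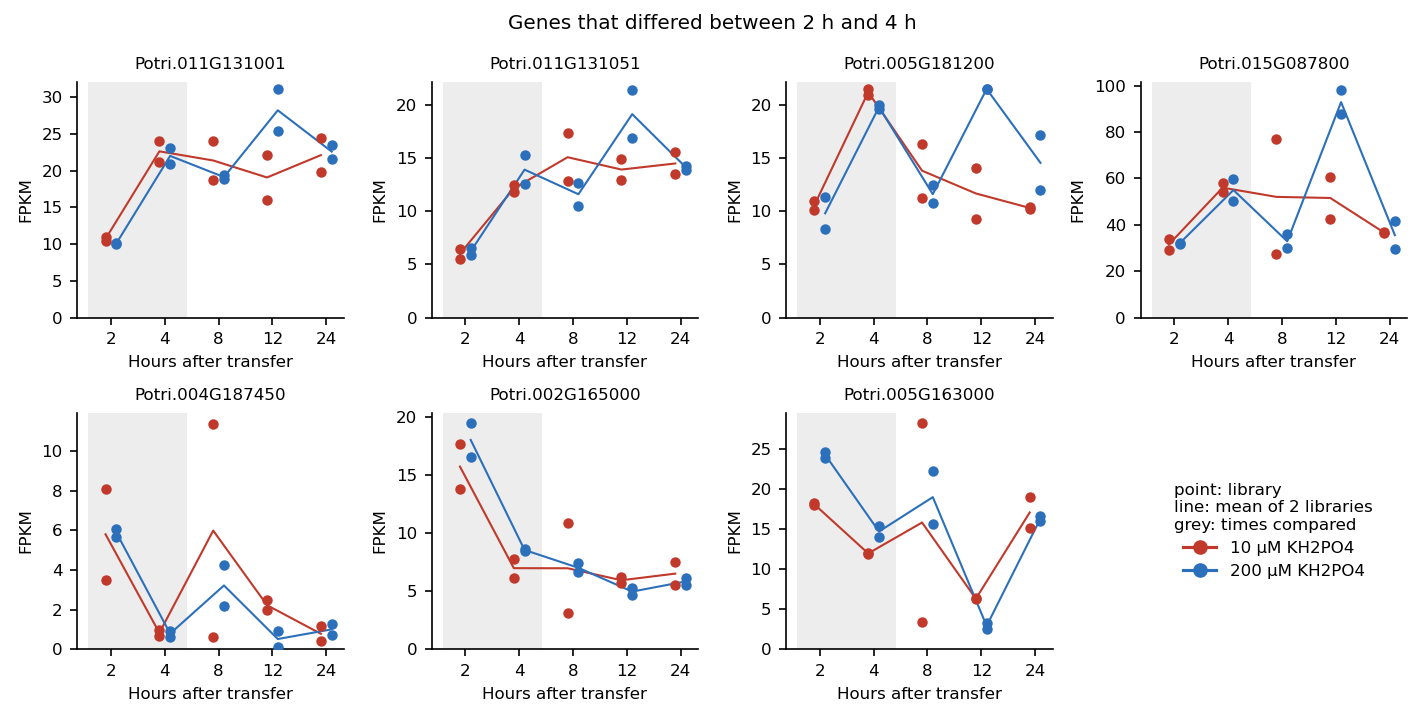
FPKM (y axis, from 0) of the 7 genes that passed the test of 4 h against 2 h, at 2, 4, 8, 12 and 24 h after transfer (x axis, evenly spaced). Points are libraries, lines the means of 2 libraries and colours the KH2PO4 level, with the compared times shaded. Within the shaded times the libraries at 4 h do not overlap those at 2 h in any panel, and at 8 h the 10 µM libraries of Potri.004G187450 lie far apart (11.4 and 0.611 FPKM).

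The number of genes that passed rested on single libraries. Leaving out replicate 1 of the 10 µM group at 2 h gave 24 genes (6 higher, 18 lower), and leaving out its replicate 2 gave 2. For the 10 µM group at 4 h the counts were 0 (replicate 1 left out) and 1 (replicate 2 left out). For the 200 µM groups they were 2 and 4 at 2 h and 0 and 1 at 4 h, in the same order. The limma fits with 0 genes had smallest adjusted p of 0.0551 and 0.0568, with 1939 and 2278 genes under an unadjusted p of 0.05. Potri.011G131001 passed in 6 of these 8 fits (adjusted p 0.0551 and 0.0568 in the other 2, which lacked replicate 1 at 4 h). Potri.005G181200 passed in 3, all lacking 1 library at 2 h, and its adjusted p ranged from 0.0154 to 0.124. The other 5 genes passed in 1 of the 8, the fit without replicate 1 at 10 µM and 2 h, with adjusted p of up to 0.164 elsewhere. Log2 differences moved less than the calls: that of Potri.011G131001 stayed between 1.00 and 1.07 and that of Potri.004G187450 between -2.11 and -1.70.

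**Figure D3:**
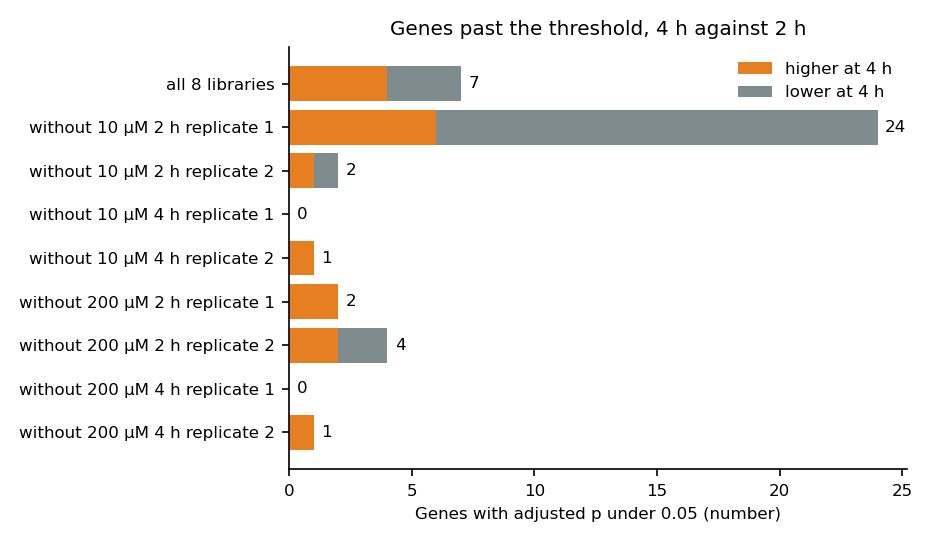
Number of genes with a Benjamini-Hochberg adjusted p under 0.05 in limma (x axis) for 4 h against 2 h, with all 8 libraries (top bar) and with each library left out in turn (other bars). Bars are split into genes higher and lower at 4 h. The count is 7 with all libraries and ranges from 0 to 24 with a library left out.

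Beyond these 7 genes, many differences fell short of the adjusted threshold. The unadjusted p was under 0.05 for 2601 of 24934 genes (10.4%), of which 1395 were higher and 1206 lower at 4 h. If no gene differed, a share of 0.05 of the genes would still be expected under this limit. With quantile normalization between libraries these numbers were 1289 and 1343, so the balance of directions depended on the scaling. The adjusted p was under 0.1 for 67 genes, 28 higher and 39 lower, and the gene closest to passing had an adjusted p of 0.0632. In 1647 genes (6.61%) the 4 libraries at 4 h did not overlap the 4 at 2 h, 941 of them higher (3.77%) and 706 lower (2.83%). Some genes would be without overlap with no change at all. Over all genes tested, selected or not, the median absolute log2 difference was 0.10. The median 95% confidence interval reached 0.26 to either side of a gene's estimate.

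Larger differences were more often falls. A log2 difference of at least 1 (2-fold) was seen in 77 genes (0.309%), 23 higher and 54 lower at 4 h, and 3 of these 77 genes passed the test. Libraries did not overlap in 52 of the 77, 11 higher and 41 lower. Under quantile normalization the split was 23 higher and 58 lower, and with a pseudocount of 0.1, which gives more weight to genes with few fragments, 143 higher and 174 lower. At a limit of 1.5-fold there were 487 genes (1.95%), 203 higher and 284 lower. No test of this imbalance was made. Genes with a mean under 1 FPKM had an unadjusted p under 0.05 in 7.87% of cases, against 11.0% for genes between 5 and 20 FPKM and 10.2% for those over 100 FPKM. None of the 1163 genes over 100 FPKM passed the adjusted threshold, against 0.0281% of all genes tested. A share so small gives few or no calls among 1163 genes, so this is not a result about abundant genes.

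The change from 2 h to 4 h was next set side by side for the phosphate levels, which come from separate libraries. At 10 µM no gene passed (limma, Benjamini-Hochberg), the smallest adjusted p was 0.587 and 1279 genes (5.13%) had an unadjusted p under 0.05. At 200 µM 1 gene passed (0.00401%) and 1480 (5.94%) had an unadjusted p under 0.05. Both unadjusted shares were close to the share of 0.05 expected if no gene changed. Of the genes with an unadjusted p under 0.05, 376 were shared, 29.4% of those at 10 µM and 25.4% of those at 200 µM. Of the shared genes, 363 had the same sign. The levels were fitted together, so each gene had the same variance estimate behind both p-values. A gene with a small estimate tends to a small p at both levels. This raises the overlap, which is a description only. Over all genes 62.9% had the same sign at both levels. The log2 changes at the 2 levels had an r of 0.411 across genes, and genes are not independent of each other. The 7 genes were called on these libraries pooled and without overlap, which fixes the same sign at both levels, so their values by level are a description. Potri.011G131001 changed by 1.01 ± 0.12 at 10 µM and 1.05 ± 0.12 at 200 µM (log2, SE), and Potri.004G187450 by -1.82 ± 0.30 and -1.96 ± 0.30.

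When the change at 200 µM was tested against that at 10 µM, 0 genes (0%) passed in limma. The smallest Benjamini-Hochberg adjusted p was 0.765, and 458 of 24934 genes (1.84%) had an unadjusted p under 0.05. That share is smaller than a limit of 0.05 gives when no gene differs, so the test was conservative here. The absence of calls therefore does not show that the changes were equal at the 2 levels. The median 95% confidence interval of this difference, with no adjustment for the number of genes, reached 0.55 (log2) to either side. After adjustment much larger differences could be missed too. A difference of -1.82 in Potri.016G102100, described next, did not pass (limma, adjusted p 0.765).

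The gene that passed at 200 µM alone was Potri.016G102100, named after its values were seen. After 2 h it measured 26.6 and 21.7 FPKM at 200 µM but 5.22 and 6.97 FPKM at 10 µM, and after 4 h 5.36 and 4.70 FPKM at 200 µM and 5.13 and 4.85 FPKM at 10 µM. Only the 200 µM libraries at 2 h stood out among the 8. The log2 change was -2.06 ± 0.17 (SE, adjusted p 0.0371 in limma) at 200 µM and -0.23 ± 0.17 at 10 µM, and the difference of these changes did not pass (adjusted p 0.765). The call was lost in a fit on the 200 µM libraries alone (adjusted p 0.387) and in a fit on all 20 libraries (0.586). Replicates of this gene disagreed at later times: it measured 6.07 and 26.1 FPKM at 200 µM and 24 h, and 19.1 and 3.61 FPKM at 10 µM and 24 h.

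The split of the 2 h libraries by replicate number was followed into the comparison by making it within each number, with 2 libraries at 2 h and 2 at 4 h in each fit. The libraries numbered 1 gave 230 genes (0.922%; 61 higher, 169 lower at 4 h) and those numbered 2 gave 426 (1.71%; 183 higher, 243 lower), against 7 when pooled. Both lists came from 4 libraries each, with the 2 phosphate levels as the only repeats. The 2 h groups shared their deviations by number (r = 0.504 across genes). Within a number the split of the 2 h libraries therefore cannot be told apart from a change with time. The 230 and 426 genes are not a count of genes changed by time alone. The log2 changes of the 2 numbers had an r of 0.0159 across genes, and 48.0% of genes had the same sign. Of the 230 genes called in the libraries numbered 1, 119 (51.7%) had the same sign in those numbered 2. Of the 426 called in the latter, 264 (62.0%) had the same sign in the former.

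A small group of genes passed in both. The lists shared 50 genes, 21.7% of the first and 11.7% of the second, and 41 of these had the same direction, 19 higher and 22 lower at 4 h. The 19 higher genes had pooled log2 differences of 0.65 to 1.31 (median 0.87) and the 22 lower genes of -2.22 to -0.60 (median -1.23). In 38 of the 41 the 4 h libraries did not overlap the 2 h libraries, against 6.61% of all genes, but calling a gene in the same direction in both parts of the same 8 libraries nearly fixes this. Of the 7 genes of the pooled test, which used these same libraries, 6 were among the 41, and Potri.005G163000 passed in the libraries numbered 2 (adjusted p 0.0491) but not in those numbered 1 (0.0598). Potri.011G131001 changed by 1.13 in the libraries numbered 1 and 0.93 in those numbered 2, and Potri.011G131051 by 0.98 and 0.97. The other 9 shared genes had opposite directions, and all 9 fell in the libraries numbered 1 and rose in those numbered 2. What distinguishes the numbers is not stated in the labels, and its part in the result was not tested.

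**Figure D4:**
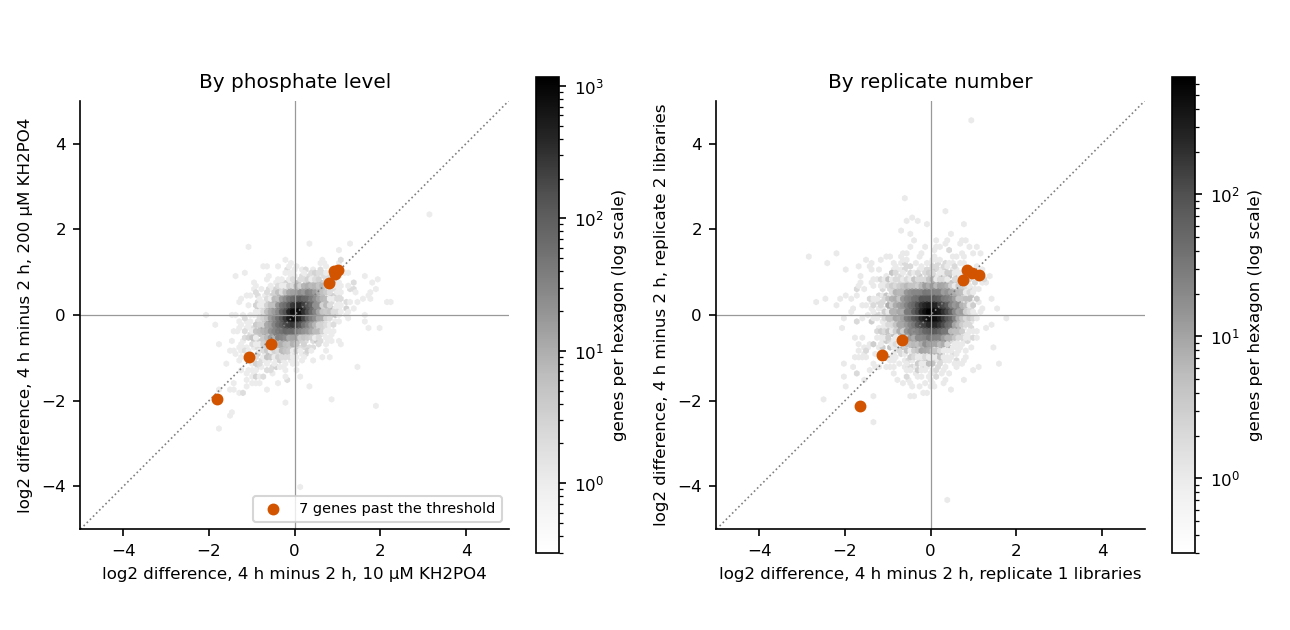
Log2 difference of each of 24934 genes between 4 h and 2 h, at 10 µM (x axis) against 200 µM KH2PO4 (y axis) on the left, and in the libraries numbered 1 (x axis) against those numbered 2 (y axis) on the right. Shading gives genes per hexagon on a log scale, the dotted line marks equal change and orange points are the 7 genes that passed the pooled test. The cloud is drawn out along the dotted line on the left (r = 0.411) and is not on the right (r = 0.0159). The 7 genes were called on the pooled libraries and had no overlap between 4 h and 2 h. The lack of overlap fixes that they change in the same direction on both axes.

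The 7 genes followed different courses after 4 h. Potri.011G131001 stayed near its 4 h level, at 20.2 ± 2.6, 23.6 ± 6.3 and 22.3 ± 2.1 FPKM at 8, 12 and 24 h (SD, n = 4 each, both phosphate levels), and Potri.011G131051 likewise held 13.3 ± 2.9, 16.5 ± 3.6 and 14.3 ± 0.89 FPKM. In both, every later library exceeded the highest 2 h library. Potri.005G181200 had means of 12.7 ± 2.5, 16.6 ± 6 and 12.4 ± 3.2 FPKM at these times, between its 2 h and 4 h means. Potri.002G165000 had later means below its 4 h mean, at 6.97 ± 3.2, 5.43 ± 0.64 and 6.16 ± 0.91 FPKM. Potri.005G163000 measured 4.58 ± 2 FPKM at 12 h and 16.7 ± 1.6 FPKM at 24 h. These means are descriptions with no test.

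At 8 h the 10 µM libraries differed widely in several of these genes. Replicate 1 and replicate 2 at 10 µM and 8 h held 27.3 and 76.8 FPKM of Potri.015G087800, 28.1 and 3.41 FPKM of Potri.005G163000, and 10.8 and 3.10 FPKM of Potri.002G165000. The 200 µM libraries at that time were closer, with 35.9 and 29.9 FPKM of Potri.015G087800.

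At 12 h, in 4 libraries outside the comparison of 4 h with 2 h, the 2 libraries at 200 µM did not overlap the 2 at 10 µM in any of the 7 genes, against 37.9% of all genes. The 7 genes share these 4 libraries and are not 7 separate observations. In each of the 7 the 200 µM libraries lay on the side toward which the gene had moved from 2 h to 4 h. The share of all genes without overlap on that side was not counted. The direction is therefore not shown to be particular to these 7 genes. Potri.015G087800 measured 60.5 and 42.6 FPKM at 10 µM and 87.6 and 98.2 FPKM at 200 µM, and Potri.005G181200 measured 14.0 and 9.31 FPKM against 21.5 and 21.6 FPKM. Potri.005G163000, which had fallen, measured 6.2 and 6.35 FPKM at 10 µM and 3.29 and 2.49 FPKM at 200 µM. No single one of these differences passed over all genes (limma on 20 libraries, Benjamini-Hochberg adjusted p 0.501 to 0.999). The direction was mostly the other one at the earlier times. Levels did not overlap in 2 of the 7 genes at 2 h, both with 200 µM on the opposite side, and in 4 at 4 h, 3 of them on the opposite side. They did not overlap in 1 gene at 8 h, on the opposite side, and in 1 at 24 h, on the side of the 4 h change. The shares of all genes without overlap at 2, 4, 8 and 24 h were 19.5%, 34.5%, 27.1% and 43.5%.

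For scale, the later steps of the course were fitted in the same way, each with 8 libraries. No gene passed in limma from 4 h to 8 h (0%) or from 8 h to 12 h (0%), whereas 1539 genes (6.17%) passed from 12 h to 24 h. The unadjusted p was under 0.05 in 3067 and 3145 genes for the steps without calls, more than the 2601 of the first step. Both of these steps include the 8 h libraries, whose 10 µM replicates differed widely in several genes above. The steps also span unequal lengths of time. The SD over genes of the log2 difference was 0.205 for the first step and 0.218, 0.223 and 0.244 for the later ones. Neighbouring steps share libraries, and the differences between their counts were not tested.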

How the data were processed

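The authors deposited 1 table of FPKM values with 34699 genes and 20 libraries, 1 column per sample, with 0 further columns of values. HISAT2 2.1.0 and Bowtie2 2.2.3 are named, without roles, in the submitters' processing notes. No label or header names the program behind the FPKM values, the genome build or the annotation (not given in the sources used here). Groups came from the sample titles.

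The analysis used log2(FPKM + 1) with no added normalization, and genes with at least 1 FPKM in at least 2 of 20 libraries were kept. limma 3.58.1 in R 4.3.3 was fitted to the 8 libraries with phosphate level and time as terms and variances moderated with a mean trend. Tests were two-sided with Benjamini-Hochberg adjustment over 24934 genes and a threshold of 0.05. The changes at each level, and their difference, came from 8-library fits with 1 mean per level and time. The fits were tested on simulated data.

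Fragments were worked out from the FPKM steps in Python 3.11.15. With whole gene lengths of 60 to 20000 bases, whole fragments to within 0.06 came out for all 24934 tested genes (100%), and they summed to each library's total to within 38 fragments. The median over tested genes and libraries was 253 fragments. These fragments served to state depth and for limma's voom as an alternative.

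The gene lists and cell type markers set up for matching to gene descriptions were void, because no descriptions were at hand. The rule for genes without descriptions named at most 2 that rose and 2 that fell, the largest log2 differences among genes past the threshold whose libraries did not overlap and whose higher mean was at least 5 FPKM. The comparison, the rule and the lists were chosen with earlier results of these data known.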

Additional observations from a re-analysis of the deposited data

How the results depend on the processing

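The 7 genes became 1 with 1 mean for each level and time, 12 (9 higher, 3 lower) when all 20 libraries were fitted, 31 (16 higher, 15 lower) with voom on recovered fragments, and 0 in limma on the 10 µM or the 200 µM libraries alone (1592 and 1080 genes with an unadjusted p under 0.05). The count was 230 and 426 within the libraries numbered 1 and 2. It was 233 without both 2 h libraries numbered 2 and 353 without both numbered 1, alternatives chosen after seeing the data. It ranged from 0 to 24 with any 1 library left out. The cause of these shifts was not tested, and the fits with libraries left out also had fewer of them. The count was 6 to 8 with a pseudocount of 0.1, no filter, a filter of 5 FPKM in 4 of 8 libraries, quantile normalization or no variance trend. All 20 libraries kept 3 of the 7 genes, and voom kept 7. With the replicate number as a term (replicate block) 9 genes passed, 5 higher and 4 lower, 6 of them among the 7, and Potri.005G163000 was lost (adjusted p 0.0509). The numbers were not taken to pair the samples, because deviations of same-numbered libraries correlated across genes with r of 0.504 between the 2 h groups but from -0.187 to 0.0946 between the other groups. The 1 gene at 200 µM was 0 on that level's libraries alone and 0 in the fit on 20 libraries. The difference between levels gave 0 genes in all alternatives run. Of the 160 values of the 7 genes under alternatives, 71 did not pass and 0 changed sign, which the lack of overlap nearly fixes. Depth limited genes with few fragments: at 4 h Potri.004G187450 rested on 8 to 12 per library.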
